A study of Mus musculus with 22 samples.

Results

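Cultured mouse cortical neurons that had received S133A CREB were compared with neurons that had received wild-type (WT) CREB, 8 h after virus delivery. S133A CREB carries alanine in place of the serine called S133. The comparison used 4 of the 22 libraries of the series, replicates 1 and 2 of S133A and replicates 3 and 4 of WT. They were chosen by virus and time and paired by the run number in the deposited file labels, so that S133A replicate 1 was set against WT replicate 3 (run D1) and S133A replicate 2 against WT replicate 4 (run D2). Both runs also held S40A-S133A CREB (replicates 1 and 2), S40A CREB (replicates 3 and 4) and GFP (replicates 3 and 4), which gave the spread between libraries and a separate look at the same substitution.

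All 5 groups shared the same background. The neurons came from cortices of Creb1-/- C57BL/6 embryos at stage E16.5 (embryonic days) and were studied after 7 days in vitro, so the WT group also lacked the endogenous gene by its label. A herpes simplex virus (HSV) supplied each form of CREB, or GFP, for 8 h. Every culture was silenced with 1 µM tetrodotoxin and 100 µM D-AP5, which block sodium channels and NMDA receptors, and then depolarized for 2 h in 55 mM KCl. The deleted part of Creb1, the promoter in the virus, the share of neurons infected and whether replicates were separate cultures are not given in the sources used here. The p-values below therefore measure only the spread between these libraries, which may be technical.

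CREB is a transcription factor that binds the cAMP response element (CRE) in the promoters of genes switched on by calcium and cAMP. S133 lies in its kinase-inducible domain and is phosphorylated by PKA, calcium/calmodulin-dependent kinases and the RSK and MSK kinases, and phosphorylated S133 binds the coactivators CBP and p300. A separate family of coactivators, the CRTC proteins, binds CREB through its leucine zipper without needing that phosphate. In the GENCODE M21 annotation of the GRCm38 genome the S133 codon of Creb1 is in exon 5 of 9, in a protein of 341 residues. It is shown in capitals in the coding sequence around it, because it is the codon changed in the virus. The stretch is spliced from 2 exons on the plus strand of chr1:64566280-64570158, and the codon lies at positions 64566310 to 64566312.
Creb1 S133 codon: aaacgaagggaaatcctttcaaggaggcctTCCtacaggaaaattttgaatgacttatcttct

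Cufflinks values in FPKM (fragments per kilobase of transcript, scaled to the library's mapped fragments) for 24490 entries were deposited for each library. The 10 libraries of runs D1 and D2 held between 12.1 M and 17.5 M fragments (M, mega), estimated from the confidence intervals in the files, and between 16695 and 17132 entries above 0. The depth is a rough estimate, because the intervals of abundant genes did not follow their level. Creb1 gave 2300 and 2334 implied fragments in S133A replicates 1 and 2, at 568 and 1834 FPKM. Of the entries with a mean of at least 1 FPKM, 11796 were tested. Of these, 10955 were genes with an assigned name longer than 200 bp. In text and figures a level is an FPKM scaled between libraries, and a difference is on the log2(scaled FPKM + 1) scale.

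A pair of libraries stood apart from the others in run D1. S133A replicate 1 correlated at r = 0.993 with S40A-S133A replicate 1 over the log2 levels of the 10955 named genes, and at r = 0.978 with WT replicate 3. In run D2, S133A replicate 2 correlated at r = 0.994 with S40A-S133A replicate 2 and at r = 0.990 with WT replicate 4. The close match of the 2 forms was thus seen in both runs, and the lower match with WT in run D1. Its correlation with its own replicate, S133A replicate 2, was r = 0.952. Of the named genes, 206 differed from WT by at least 1 log2 unit in run D1 and 22 did so in run D2, and 3 did so in both runs in the same direction. Of the 206, 119 also differed that far and in the same direction between S40A-S133A and S40A in run D1, and 115 of those moved by less than 0.5 in both run D2 differences. Nrgn (neurogranin, a postsynaptic calmodulin-binding protein) is an example chosen after its values were seen. It stood at 75.9 and 380 FPKM in S133A replicates 1 and 2, against 358 and 344 in WT, while the S40A-S133A libraries read 74.7 and 353 and the S40A libraries 336 and 306. For this reason values are given for each run, and a value from run D1 alone rests on S133A replicate 1.

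Activity-regulated genes were also higher in run D2 than in run D1 with every virus. The median difference, run D2 minus run D1, across 26 immediate early transcription factors was 0.91 with S133A, 1.12 with WT, 1.00 with S40A-S133A, 0.62 with S40A and 1.69 with GFP. Differences between viruses were therefore read within a run. The difference between runs, in cultures or in libraries, was not tested.

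Creb1, the gene the virus supplied, was read in every library. It stood at 568 and 1834 FPKM in S133A libraries, against 758 and 2064 in WT libraries. The S40A-S133A libraries held 675 and 2131, the S40A libraries 570 and 2301, and the GFP libraries 14.9 and 11.1. All 8 libraries given CREB lay far above both GFP libraries, and with each form of CREB run D2 held more than run D1, while the GFP libraries did not follow that order. The difference between S133A and WT was -0.29 (SE 0.55, 95% interval -1.63 to 1.04), with an adjusted p of 0.861 by limma with Benjamini-Hochberg adjustment. Without both libraries that stood apart it was 0.04. FPKM of a whole gene cannot tell the mutant codon from the wild-type codon, and a virus transcript is counted with any left from the deleted gene.

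**Figure D1:**
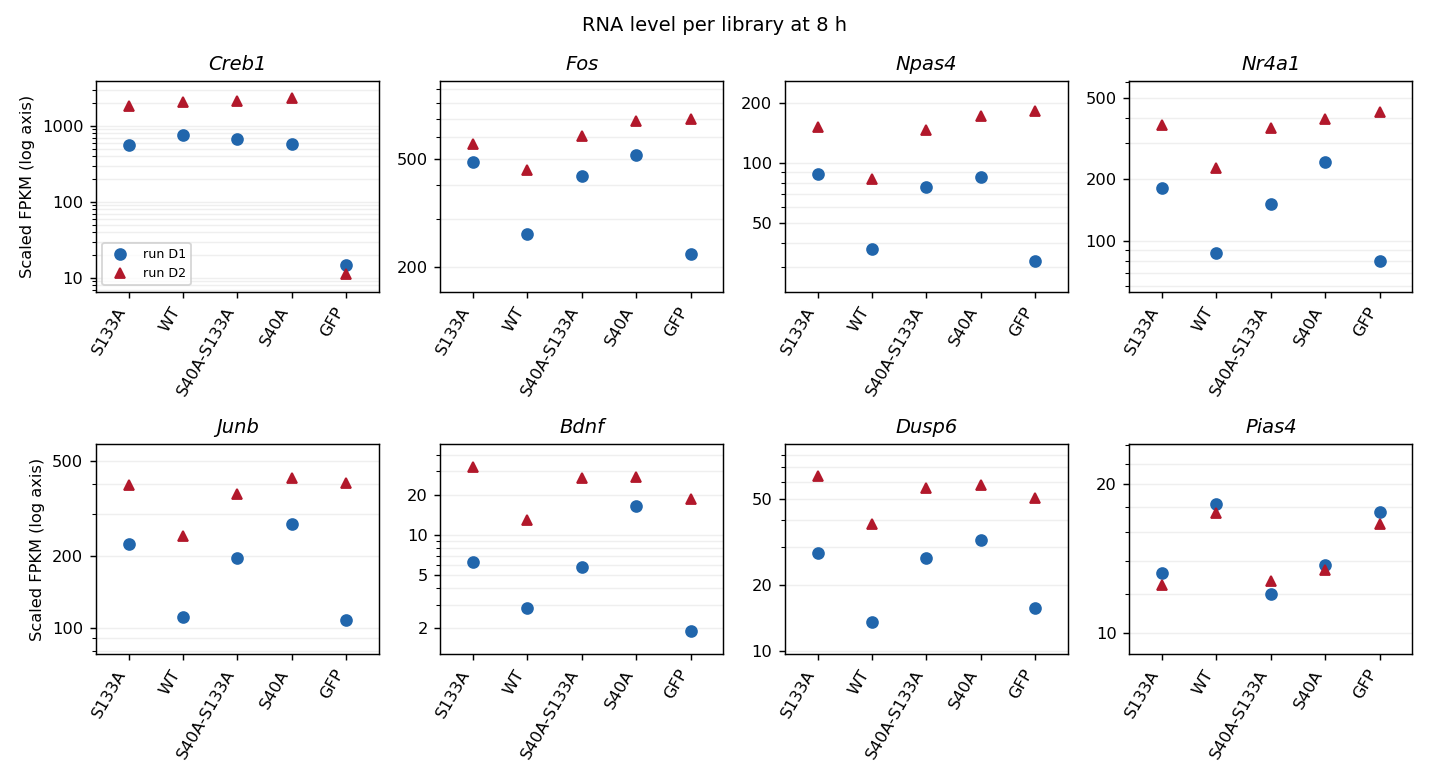
Scaled FPKM on a log axis for 8 genes in the 10 libraries of the 2 runs, 1 point for each library (circles run D1, triangles run D2), grouped by virus. Creb1 is between 568 and 2301 in the 8 libraries given CREB and at 14.9 and 11.1 with GFP; for Fos, Npas4, Nr4a1, Junb, Bdnf and Dusp6 the S133A point lies above the WT point of the same run, and for Pias4 below it.

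Across all 11796 genes the test called 2 entries (0.017%), 1 in each direction, and neither was a protein-coding gene. The entry for Mir27a, a microRNA precursor, rose to 32.8 and 36.4 FPKM in S133A libraries and was listed at 0 in both WT libraries and in the 6 other libraries of the 2 runs (adjusted p = 0.000263, limma). The value amounts to about 1 fragment in each S133A library. The entry reached the minimum mean only through those libraries, so its p-value is not support for a change. The entry for the small nucleolar RNA Snora68 fell to 0 in both S133A libraries, against 93.5 and 122.6 FPKM in WT libraries, or about 4 fragments each (adjusted p = 0.000677, limma). Its other 6 libraries held between 30.4 and 86.8 FPKM. Mir27a lies at chr8:84208672-84208758 and Snora68 at chr8:70895759-70895856 (GRCm38). Both entries are much shorter than the fragments of an mRNA library, and Mir27a lost its call with a pseudocount of 0.1 or a minimum mean of 5 FPKM. No named gene longer than 200 bp passed. With S133A replicate 1, S133A replicate 2, WT replicate 3 or WT replicate 4 left out, the calls numbered 17, 14, 14 and 20, all of them small RNA entries but Srrd, which was called without WT replicate 3. Leaving out S40A replicate 3 or replicate 4 gave 5 calls in each case, among them the named genes Trmt112 and Adck5. Before adjustment 909 genes (7.71%) had p under 0.05, of which 564 (4.78%) were higher in S133A and 345 (2.92%) lower, and on the deposited FPKM without scaling 44.9% of such genes were higher, against 62.0% with scaling. Without WT replicate 3 the count was 463, and without WT replicate 4 it was 469. Every named gene below that is not Mir27a or Snora68 missed the adjusted threshold, and its values are given as a description.

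The immediate early transcription factors, which neurons make within minutes to hours of depolarization, mostly lay above WT in S133A libraries. Of 26 tested, 22 were above WT in both runs and 2 were below WT in both runs, against 32.6% and 25.7% of all genes. Their median difference was 0.49, with 0.53 in run D1 and 0.57 in run D2, against 0.01 over all genes. Before adjustment 6 were higher and 1 lower at p under 0.05. In run D2 alone, without either library that stood apart, 24 of 26 were above WT. Over the 16 libraries of both 8 h sets of the series the median was 0.27.

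Npas4, a neuron-specific factor induced by calcium entry, had the largest difference in this list. It stood at 87.9 and 152 FPKM in S133A libraries, against 37.2 and 83.0 in WT libraries. Within each run S133A was above WT, and both S133A libraries were above both WT libraries. The fold was 2.06 (95% interval 1.06 to 4.00, adjusted p = 0.613, limma). Fos, a subunit of the AP-1 complex, stood at 486 and 567 FPKM in S133A libraries, against 264 and 455 in WT libraries, again without overlap between groups (difference 0.60, SE 0.33). Over all genes 11.9% had both S133A libraries above both WT libraries and 11% had both below.

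Other AP-1 subunits showed the same order within each run. Junb stood at 224 and 397 FPKM in S133A libraries, against 111 and 243 in WT libraries. Fosb stood at 175 and 310 in S133A libraries, against 95.5 and 207 in WT libraries, and Fosl2 at 34.4 and 131.9, against 15.7 and 81.6 in WT. For these 3 genes the groups overlapped, because WT in run D2 exceeded S133A in run D1. The NR4A nuclear receptors, which bind DNA without a known hormone, also lay above WT in both runs. Nr4a1 stood at 182 and 371 FPKM in S133A libraries, against 87.7 and 228 in WT libraries, Nr4a2 at 70.0 and 233, against 45.8 and 155 in WT, and Nr4a3 at 151 and 255, against 64.2 and 170 in WT. Nfil3, a repressor of the basic leucine zipper class, had a difference of 0.75, and Egr1, a zinc-finger factor, had 0.42, with 0.24 in run D1 and 0.60 in run D2.

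Atf3 and Klf10 were the 2 members below WT in both runs. Atf3, a stress-induced member of the ATF/CREB family, stood at 15.1 and 46.3 FPKM in S133A libraries, against 19.8 and 63.3 in WT libraries. Klf10, a Krüppel-like repressor, stood at 8.85 and 18.7 in S133A libraries, against 13.1 and 26.2 in WT libraries. The differences were -0.41 (SE 0.16) and -0.49 (SE 0.26), and both genes were also higher with GFP than with S133A within each run.

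The position of WT among the 5 viruses was not the same in both runs. In run D2 WT replicate 4 was the lowest of the 5 libraries for 24 of the 26 immediate early factors, against 28.8% of all genes. In run D1 the lowest was GFP replicate 3 for 16 of the 26, against 32.5% of all genes. WT replicate 3 was the lowest for 4, against 11.9% of all genes. S40A was the highest of the 5 for 18 factors in run D1 and 16 in run D2, against 20.6% and 20.7% of all genes. For Fos in run D1, S133A read 486 FPKM, WT 264, S40A-S133A 433, S40A 517 and GFP 224, and in run D2 S133A read 567, WT 455, S40A-S133A 607, S40A 690 and GFP 701. GFP was thus the lowest of the 5 for Fos in run D1 and the highest in run D2, while WT was below S133A, S40A-S133A and S40A in both.

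**Figure D2:**
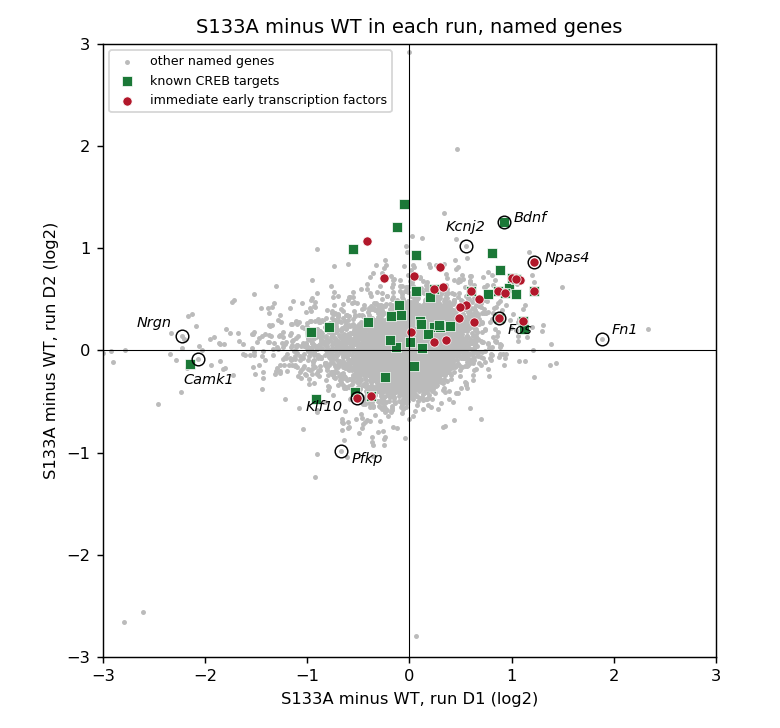
S133A minus WT on the log2 scale in run D1 (horizontal) and run D2 (vertical) for 10955 named genes, 1 point for each gene, with immediate early transcription factors and known CREB targets coloured and some genes circled and labelled. The differences of the 2 runs correlate at r = 0.213 across genes, the points spread more along run D1 than along run D2, and most coloured points lie at positive values in both. The 8 genes beyond 3 units on either axis are not drawn.

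Known CREB targets leaned the same way. This list was written with earlier results of these data known and shares 10 tested genes with the immediate early list. Of 46 tested, 28 were above WT in both runs and 5 below, and 8 were higher and 2 lower at unadjusted p under 0.05. These counts, and those of the lists below, are to be read against 32.6% of all genes above and 25.7% below WT in both runs. At that p, 4.78% of all genes were higher and 2.92% lower. The median difference was 0.27, with 0.11 in run D1 and 0.30 in run D2, and 0.13 over 16 libraries. In run D2, 40 of the 46 were above WT, against 29 in run D1. WT replicate 4 was again the lowest of its run, for 35 of 46, against 28.8% of all genes.

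Bdnf, a neurotrophin made in response to activity, had the largest positive difference among the targets. It stood at 6.27 and 32.3 FPKM in S133A libraries, against 2.84 and 12.9 in WT libraries. Run D2 was far above run D1 with both viruses, so the groups overlapped although S133A exceeded WT within each run. The fold was 2.13 (95% interval 1.01 to 4.48, adjusted p = 0.613, limma). Scg2, a granin of dense-core vesicles, stood at 39.9 and 72.4 FPKM in S133A libraries, against 22.4 and 36.8 in WT libraries, and did not overlap. Sik1, a kinase that phosphorylates and restrains CRTC proteins, stood at 51.8 and 102 in S133A libraries, against 24.6 and 69.1 in WT libraries. Dusp1, a phosphatase of MAP kinases, stood at 43.9 and 49.0 in S133A libraries, against 21.8 and 31.9 in WT libraries, and did not overlap. Btg2, an antiproliferative regulator of mRNA decay, stood at 3.41 and 8.49 in S133A libraries, against 1.39 and 4.49 in WT libraries. Sst, the peptide somatostatin, stood at 184 and 125 in S133A libraries, against 84.2 and 108 in WT libraries, and its difference was 1.12 in run D1 and 0.21 in run D2.

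Some targets lay below WT or split between the runs. Gadd45b, a DNA-repair and demethylation adaptor, stood at 43.0 and 174 FPKM in S133A libraries, against 85.1 and 153 in WT libraries. Nptx2, a pentraxin that gathers AMPA receptors, stood at 27.9 and 61.9 in S133A libraries, against 40.9 and 82.6 in WT libraries, and was below WT in both runs. Crem, which encodes the CREB-related repressor ICER, stood at 17.5 and 51.2 in S133A libraries, against 18.8 and 37.2 in WT libraries. The Crem difference was 0.18 and was -0.17 over 16 libraries. Per1, a clock gene with CREs, failed in the Cufflinks estimate of S133A replicate 2 and was not tested. Its scaled values were 21.6 and 45.2 FPKM in S133A libraries, against 16.0 and 32.8 in WT libraries.

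The promoters of 5 of these genes are shown, some with the full element and some with shorter forms only. Each is the RefSeq window from 250 bases before to 50 after the gene's start (GRCm38.p6), written 5′ to 3′ on the gene's strand, with the full CRE TGACGTCA and the shorter letters TGACG or CGTCA in capitals. The full CRE reads the same on both strands and holds both shorter forms, which are counted within it. Scg2 (minus strand of chr1:79439977-79440276), Dusp1 (minus strand of chr17:26508423-26508722) and Btg2 (minus strand of chr1:134079106-134079405) hold the full element. Nr4a1 (plus strand of chr15:101266596-101266895) holds 4 of the shorter forms, and Fos (plus strand of chr12:85473640-85473939) holds 2. None of these letters is in the windows of Dusp6 and Pcdh8, which are not shown. Bdnf has several windows, and only that at chr2:109692186-109692485 holds a shorter form.
Scg2 promoter: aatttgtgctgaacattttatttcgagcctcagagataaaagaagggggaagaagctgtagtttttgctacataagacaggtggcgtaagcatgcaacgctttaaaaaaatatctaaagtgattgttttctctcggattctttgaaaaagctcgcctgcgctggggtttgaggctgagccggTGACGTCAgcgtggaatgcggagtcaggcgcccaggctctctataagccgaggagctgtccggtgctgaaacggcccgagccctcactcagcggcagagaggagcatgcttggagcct
Dusp1 promoter: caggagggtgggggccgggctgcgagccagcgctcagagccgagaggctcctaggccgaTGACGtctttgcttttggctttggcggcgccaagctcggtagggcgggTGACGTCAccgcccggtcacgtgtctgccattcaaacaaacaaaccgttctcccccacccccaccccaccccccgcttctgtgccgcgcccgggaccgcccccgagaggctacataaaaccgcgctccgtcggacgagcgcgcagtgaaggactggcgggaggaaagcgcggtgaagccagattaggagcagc
Btg2 promoter: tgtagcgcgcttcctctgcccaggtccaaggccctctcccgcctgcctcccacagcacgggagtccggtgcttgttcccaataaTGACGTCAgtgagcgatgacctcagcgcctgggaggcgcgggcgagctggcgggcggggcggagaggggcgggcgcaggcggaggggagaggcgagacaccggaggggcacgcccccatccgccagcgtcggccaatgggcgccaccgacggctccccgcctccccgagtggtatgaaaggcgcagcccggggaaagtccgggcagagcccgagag
Nr4a1 promoter: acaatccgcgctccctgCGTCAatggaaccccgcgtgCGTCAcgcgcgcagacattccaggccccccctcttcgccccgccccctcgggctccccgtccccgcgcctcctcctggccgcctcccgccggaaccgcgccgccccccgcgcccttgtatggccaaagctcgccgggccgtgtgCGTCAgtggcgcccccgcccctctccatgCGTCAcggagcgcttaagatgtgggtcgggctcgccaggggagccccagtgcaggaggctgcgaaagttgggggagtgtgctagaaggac
Fos promoter: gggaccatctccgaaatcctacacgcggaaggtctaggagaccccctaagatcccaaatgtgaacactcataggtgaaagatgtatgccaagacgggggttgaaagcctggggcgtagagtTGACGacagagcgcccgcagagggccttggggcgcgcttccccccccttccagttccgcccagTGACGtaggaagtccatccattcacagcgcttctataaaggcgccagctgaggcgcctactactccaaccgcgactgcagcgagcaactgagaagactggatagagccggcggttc

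The full CRE was in 1.79% of all 32851 promoter windows of the table and in 338 of the 8704 tested genes with a window (3.88%). The shorter forms were in 20.8% of all windows and in 37.0% of those tested genes. Among known CREB targets with a window, 7 of 31 held the full element and 25 held a shorter form. Of the 338 genes with the full element, 156 (46.2%) were above WT in both runs and 61 (18.0%) below. Of 2879 genes with only a shorter form, 33.8% were above and 26.1% below. Of 5487 genes with none of these letters, 31.7% were above and 27.1% below. The median difference with the full element was 0.06 (0.09 in run D1 and 0.06 in run D2). It was 0.01 with only a shorter form and 0.00 in genes with none. A letter match is a description of the window and not a site bound by CREB in these neurons.

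Inhibitors of signalling that are themselves induced by activity showed a similar lean. They share 6 tested genes with the CREB targets. Of 32 tested, 22 were above WT in both runs and 3 below, and 8 were higher and none lower at unadjusted p under 0.05. Their median difference was 0.21, with 0.24 in run D1 and 0.18 in run D2. Dusp6, a phosphatase selective for ERK, had the smallest p among them. It stood at 28.2 and 63.8 FPKM in S133A libraries, against 13.5 and 38.5 in WT libraries, a fold of 1.82 (95% interval 1.32 to 2.50, adjusted p = 0.613, limma). Within each run S133A was above WT, and across runs the groups overlapped. Rgs4, which shortens signalling through G proteins, stood at 31.0 and 22.0 in S133A libraries, against 10.4 and 14.0 in WT libraries, without overlap. Dusp5 and Dusp2, phosphatases of MAP kinases in the nucleus, were below WT in both runs, with differences of -0.24 and -0.22.

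Effector genes of activity, which act at synapses and in the cell body, were divided by run. Of 38 tested, 17 were above WT in both runs and 9 below. Their median difference was -0.06 in run D1 and 0.32 in run D2, and 29 of 38 were above WT in run D2, against 17 in run D1. This list shares 12 tested genes with the CREB targets. Trib1, a pseudokinase that directs proteins to degradation, stood at 10.8 and 41.6 FPKM in S133A libraries, against 4.28 and 20.9 in WT libraries. Homer1, a postsynaptic scaffold, stood at 38.3 and 176 in S133A libraries, against 27.2 and 111 in WT libraries. Arc, which promotes removal of AMPA receptors, stood at 16.0 and 58.9 in S133A libraries, against 27.1 and 57.7 in WT libraries. The Arc difference of -0.35 thus came from run D1, and it was 0.05 without both libraries that stood apart. Sgk1, a serum- and glucocorticoid-induced kinase, stood at 30.1 and 73.4 in S133A libraries, against 56.4 and 84.0 in WT libraries, below WT in both runs.

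Neuropeptides and granins varied widely in both directions, and they share 12 tested genes with the CREB targets. Of 24 tested, 14 were above WT in both runs and 3 below, with a median of 0.09 and a range from -1.19 to 0.88. The median was -0.04 without WT replicate 4 and 0.17 without WT replicate 3. Npy, neuropeptide Y of interneurons, stood at 28.6 and 20.8 FPKM in S133A libraries, against 18.3 and 13.4 in WT libraries. Both S133A libraries were above both WT libraries, and the difference was close in the 2 runs, at 0.62 and 0.59 (mean SE 0.14, unadjusted p = 0.00508 and adjusted p = 0.613, limma). Vgf, a secreted nerve growth factor-inducible precursor, stood at 53.0 and 75.3 in S133A libraries, against 40.1 and 63.5 in WT libraries. Nts (neurotensin) and Tac1 (precursor of substance P) were low in S133A replicate 1 and not in the other 3 of these libraries. Nts stood at 3.12 and 20.9 in S133A libraries, against 19.0 and 22.5 in WT libraries, and Tac1 at 2.19 and 28.5, against 13.2 and 31.3 in WT. The S40A-S133A library of run D1 was low for both as well, at 4.79 FPKM for Nts and 2.71 for Tac1. Gal (galanin) stood at 0.98 and 2.28 in S133A libraries, against 2.74 and 3.56 in WT libraries, without overlap. Among 12 neurotrophins and receptors 7 were above WT in both runs and 3 below. Apart from Bdnf the largest differences were 0.41 for Gfra1, the GDNF co-receptor, and -0.44 for Ntf3, neurotrophin-3.

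**Figure D3:**
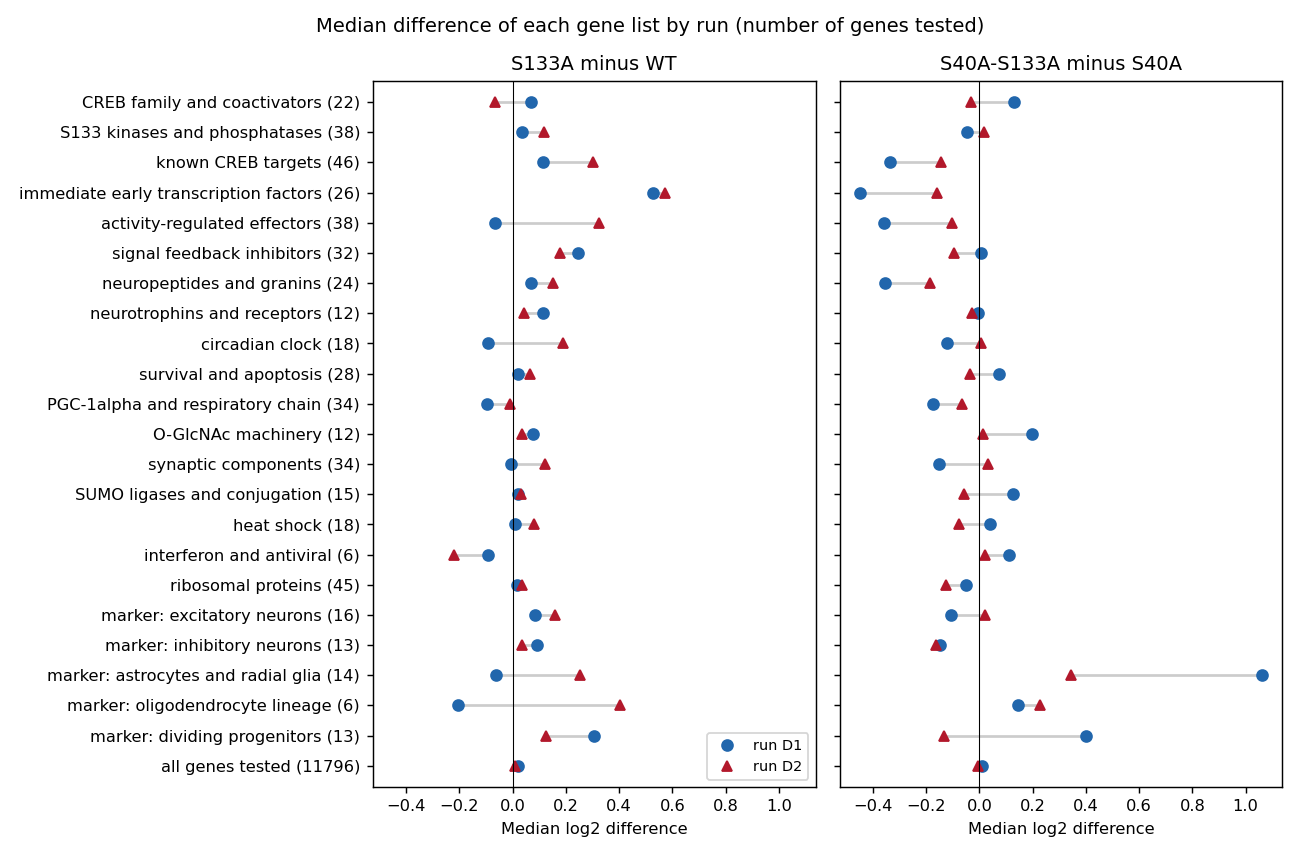
Median log2 difference of each gene list in run D1 (circles) and run D2 (triangles), for S133A minus WT (left) and S40A-S133A minus S40A (right), with the number of genes tested in brackets. Immediate early transcription factors lie at 0.53 and 0.57 on the left and at -0.45 and -0.16 on the right; all genes lie near 0 in both panels.

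The CREB family and its coactivators differed little between S133A and WT. Of 22 CREB family members and coactivators, 7 were above WT in both runs and 6 below, close to the shares of all genes, and none had an unadjusted p under 0.05. Atf4, the effector of the integrated stress response, stood at 281 and 285 FPKM in S133A libraries, against 194 and 248 in WT libraries. Ep300, the coactivator p300, stood at 15.4 and 13.3 in S133A libraries, against 12.7 and 11.8 in WT libraries, and Atf1, the closest relative of CREB next to CREM, had a difference of 0.23. Kinases and phosphatases of S133 had 17 of 38 members above WT in both runs and 7 below, against 32.6% and 25.7% of all genes. Of the 38, 6 were higher and none lower at unadjusted p under 0.05, against 4.78% and 2.92% of all genes. Ppp2cb, a catalytic subunit of protein phosphatase 2A, stood at 88.6 and 85.5 in S133A libraries, against 67.8 and 71.3 in WT libraries. The type II regulatory subunits of PKA, Prkar2a and Prkar2b, had differences of 0.34 and 0.26. Rps6ka1, which encodes RSK1, stood at 3.90 and 3.17 in S133A libraries, against 5.07 and 4.48 in WT libraries. Camk1, a calmodulin-dependent kinase, differed by -2.07 in run D1 and by -0.08 in run D2, and its S40A-S133A library of run D1 read 2.09 FPKM, against 14.3 in the S40A library of that run.

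The named genes with the smallest unadjusted p were chosen with the same sign in both runs, and a small p favours close runs. The 9 higher genes were Pcdh8, Lysmd3, Pef1, Hist3h2ba, Sbds, Kcnj2, Lsm8, Gpr19 and Clp1, and the 9 lower genes were Pias4, Rps6kl1, Bscl2, Pfkp, Pxdn, Plekhm2, Dusp22, Abcb10 and Mpp3, each with an adjusted p of 0.613 by limma. Since they were picked for their p from 10955 genes, their values are a description. Pcdh8, the activity-regulated protocadherin Arcadlin, had a difference of 0.41 (SE 0.06). Kcnj2, an inward-rectifier potassium channel, was at 0.55 in run D1 and 1.02 in run D2. Pias4, a SUMO ligase, stood at 13.2 and 12.5 FPKM in S133A libraries, against 18.2 and 17.4 in WT libraries, a fold of 0.74 (95% interval 0.66 to 0.82). Bscl2, the seipin of lipid droplets, stood at 19.2 and 23.4 in S133A libraries, against 29.5 and 40.1 in WT libraries. Pfkp, a phosphofructokinase of glycolysis, stood at 25.4 and 46.3 in S133A libraries, against 41.0 and 92.4 in WT libraries.

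**Figure D4:**
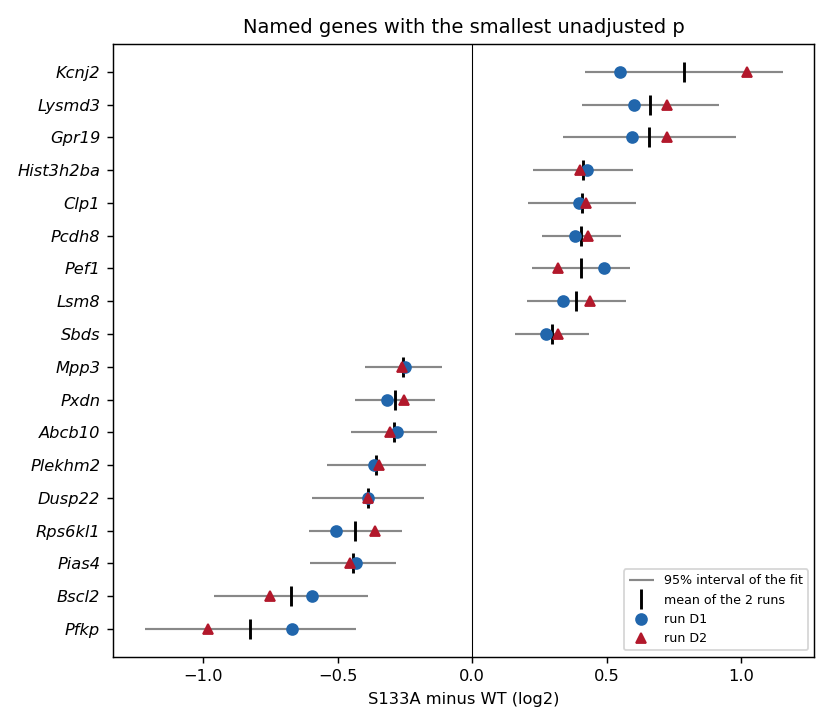
S133A minus WT on the log2 scale for the 18 named genes with the smallest unadjusted p in each direction, with the mean of the 2 runs (bar), its 95% interval (line), run D1 (circle) and run D2 (triangle). The 2 runs lie on the same side of 0 for every gene, by the rule that chose them, and the means run from -0.83 for Pfkp to 0.79 for Kcnj2.

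The other gene programs are given by their counts, to be read against 32.6% of all genes above and 25.7% below WT in both runs. Synaptic components were above WT in both runs for 17 of 34 and below for 1, with 33 of 34 above WT in run D2 and 17 in run D1. Genes of the respiratory chain and of its regulator PGC-1alpha were above WT in both runs for 6 of 34 and below for 17, with a median of -0.04 (-0.10 in run D1 and -0.01 in run D2). Clock genes were above for 4 of 18 and below for 5, and Arntl, which encodes the clock activator BMAL1, had a difference of -0.30 (SE 0.07). Survival and apoptosis genes were above for 14 of 28 and below for 8, O-GlcNAc machinery for 5 and 3 of 12, SUMO ligases and conjugation for 6 and 2 of 15, and heat shock genes for 8 and 2 of 18. Ribosomal protein genes were above for 18 of 45 and below for 15, with a median of 0.00, which was -0.05 without scaling and -0.06 with quantile normalization. Of 32 interferon and antiviral genes only 6 reached the minimum level, 1 above and 3 below WT in both runs. Irf9, a component of the interferon-activated factor ISGF3, was the lowest of these, at 5.62 and 5.05 FPKM in S133A libraries, against 6.90 and 7.49 in WT libraries.

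Markers placed the cultures as cortical neurons. All 16 excitatory neuron markers were at 1 FPKM or more in every library, and their summed level was 1197 and 1035 in S133A libraries, against 1183 and 920 in WT libraries. Inhibitory neuron markers summed to 627 and 559 in S133A libraries, against 490 and 546 in WT libraries. Those of astrocytes and radial glia summed to 209 and 417 in S133A libraries, against 193 and 343 in WT libraries, those of the oligodendrocyte lineage to 30.3 and 79.6, against 36.6 and 56.1 in WT, and those of dividing progenitors to 70.5 and 88.8, against 49.3 and 84.1 in WT. Microglial markers summed to 7.48 and 9.13 in S133A libraries, against 4.85 and 9.49 in WT libraries, and those of vascular cells and fibroblasts to 3.74 and 10.4, against 6.62 and 12.3 in WT. Among progenitor markers 10 of 13 tested were above WT in both runs and none below, and among glial markers 6 of 14 were above and 1 below. The glial median was -0.06 in run D1 and 0.25 in run D2. Neurod6 and Neurod2, factors of excitatory neurons, had differences of 0.48 and 0.31, while Emx1, a cortical homeobox factor, had -0.32. In these bulk libraries fewer cells of a type and less RNA per cell cannot be told apart. The part of cell makeup in the activity gene differences was not tested.

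The same substitution was also measured on an S40A background, where the immediate early factors and CREB targets mostly lay on the other side of 0. S40A-S133A was compared with S40A in libraries of the same 2 runs that the S133A comparison does not use. Of the 26 immediate early factors, 22 were below S40A in both runs and none above, against 26.1% and 24.7% of all genes, and the median was -0.29 (-0.45 in run D1 and -0.16 in run D2). Of the 46 known CREB targets, 30 were below S40A in both runs and 2 above, with a median of -0.26. The lower levels were not particular to these 2 lists. Genes of the respiratory chain and PGC-1alpha were below S40A in both runs for 30 of 34 and above for 1. Activity effectors were below for 24 of 38 and above for 3, and neuropeptides and granins for 16 and 2 of 24. Ribosomal protein genes were below for 23 of 45 and above for 5, and inhibitory neuron markers for 10 and 0 of 13. Signal feedback inhibitors leaned lower to a smaller degree, with 13 of 32 below S40A in both runs and 7 above. Their median was -0.02, with 0.005 in run D1 and -0.09 in run D2. Of 14 markers of astrocytes and radial glia, 10 were above S40A in both runs and none below, with a median of 0.61 (1.06 in run D1 and 0.34 in run D2), and their part in the lower levels of activity genes was not tested. For Junb the S40A-S133A libraries read 196 and 365 FPKM, against 273 and 425 in S40A libraries. For Bdnf they read 5.75 and 26.6, against 16.6 and 27.1 in S40A libraries. The test of S40A-S133A against S40A called 4 entries (0.0339%), all small RNAs, and 269 genes (2.28%) had an unadjusted p under 0.05.

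The difference between the 2 effects of the substitution was tested for each gene. It called 6 entries (0.0509%), all small RNAs, and 395 genes (3.35%) had an unadjusted p under 0.05, of which 274 (2.32%) had a lower effect of S133A on the S40A background. Of the 26 immediate early factors 8 had an unadjusted p under 0.05, all lower, as did 7 of 46 CREB targets, 7 of 38 effectors and 7 of 32 feedback inhibitors. The CREB targets share genes with each of the other lists. For Junb the difference of effects was -1.21 and for Dusp6 -1.02, each with an adjusted p of 0.999 by limma. For Junb, S40A was the highest and WT the lowest of the 4 forms of CREB in each run, and S133A and S40A-S133A lay between them. For Dusp1 the S133A libraries read 43.9 and 49.0 FPKM, the WT libraries 21.8 and 31.9, the S40A-S133A libraries 39.4 and 42.6 and the S40A libraries 39.1 and 50.2, so that WT stood lowest there too. The difference of a whole list was not tested.

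**Figure D5:**
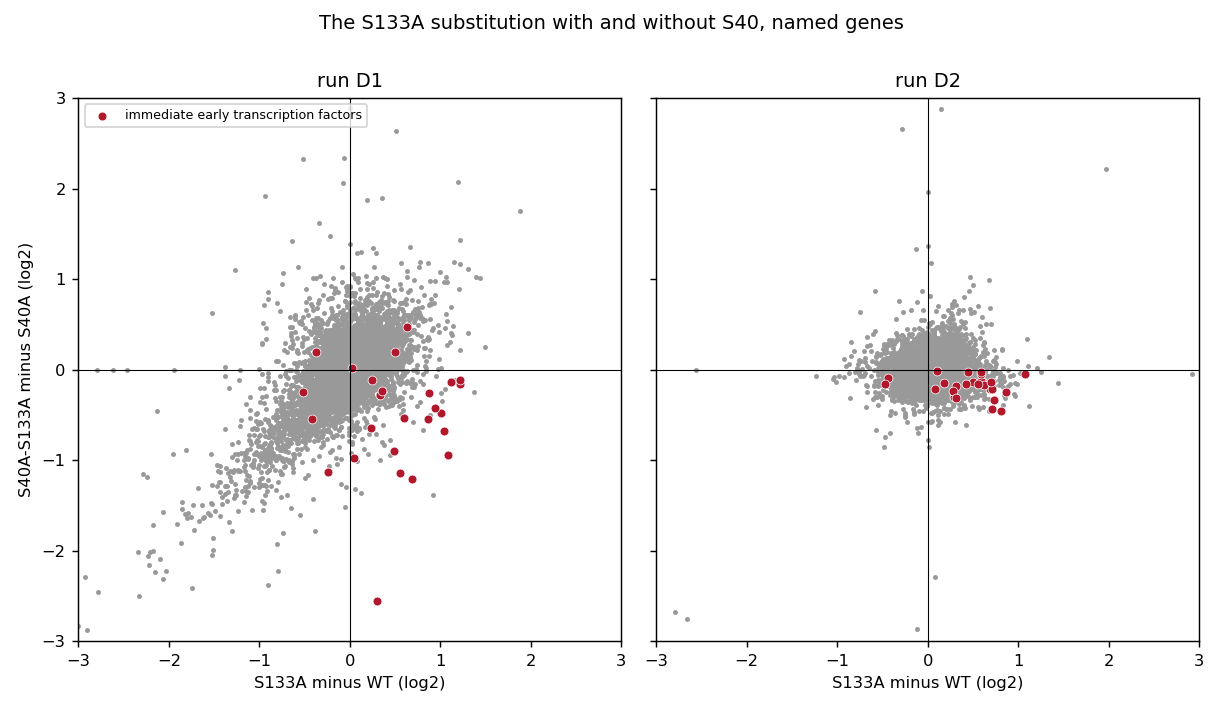
S133A minus WT (horizontal) against S40A-S133A minus S40A (vertical) on the log2 scale for 10955 named genes, in run D1 (left) and run D2 (right), 1 point for each gene, with immediate early transcription factors coloured. The correlation across genes is r = 0.607 in run D1 and r = 0.0956 in run D2, and most immediate early factors lie at positive horizontal and negative vertical values. The 13 genes in run D1 and 5 in run D2 beyond 3 units are not drawn.

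The microRNAs miR-212 and miR-132, encoded together in a CREB-responsive cluster on chromosome 11, were looked at after their values were seen. Their main strands are shown because they share the seed, bases 2 to 8, in capitals, and so differ only outside it (RefSeq, GRCm38.p6, plus strand, chr11:75173443-75173464 and chr11:75173723-75173744).
mmu-miR-212-3p: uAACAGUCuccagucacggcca
mmu-miR-132-3p: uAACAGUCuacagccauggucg

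The Mir212 precursor entry stood at 327 and 406 FPKM in S133A libraries, against 76.3 and 35.5 in WT libraries, without overlap (difference 2.78, SE 0.52, adjusted p = 0.613, limma). These values amount to 13 and 14 fragments in S133A libraries, against 3 and 1 in WT libraries. The Mir132 entry stood at 352 and 605 in S133A libraries, against 0 and 742 in WT libraries, and overlapped, on 3 fragments or fewer in each. Libraries made from mRNA hold fragments of precursor transcripts and not mature microRNAs.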

How the data were processed

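Total RNA was extracted, made into Illumina mRNA libraries and sequenced, per the labels' protocols. The authors deposited 1 table per library of Cufflinks FPKM with confidence intervals per gene, and the submitters' processing notes name CASAVA 1.7, Bowtie 0.12.2, Cufflinks and the builds mm8 and mm10. Positions in the tables match mm10. FPKM values are not counts, so depth was roughly estimated from the intervals. The values were scaled by the median of ratios and tested as log2(FPKM + 1), which understates the change of low genes. The minimum was a mean of 1 FPKM across the 10 libraries, which 11808 entries reached, and 12 of these with failed estimates were removed. The model in limma 3.58.1 (R 4.3.3) had virus and run as terms and a mean-variance trend, with 4 residual degrees of freedom, and p-values were adjusted by Benjamini-Hochberg over 11796 entries, with 0.05 as the threshold. Tables and figures were made in Python 3.11.15 with pandas 2.3.3, numpy 2.4.6 and matplotlib 3.10.9. The run numbers in the files pair the libraries. The deviations of S133A replicate 1 and WT replicate 3 from their group means correlated at r = 0.214 across entries. The fit was tested on simulated data with normal noise of the spread it had estimated. It called 25% of genes changed by 0.5 log2 units, 74.2% of those changed by 1 and 97% of those changed by 2. It also called 4 unchanged entries. A gene that missed the threshold is therefore not shown to be unchanged. No 2 libraries were identical. An exact permutation test of 2 libraries against 2 cannot reach p under 0.05 and was not used. The members and the gene lists were chosen with earlier results of these data known. Named genes were Creb1, the called entries, the genes of smallest p with the same sign in both runs that filled each direction up to 10, and up to 3 members per direction of each list. Alternatives changed the libraries, the run term, the pseudocount, the minimum, the scaling and the moderation. The 4 h libraries were not used.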

Additional observations from a re-analysis of the deposited data

Results flagged for a closer look

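The test of the difference between the 2 effects of the S133A substitution called 6 entries, all small RNAs (limma with Benjamini-Hochberg adjustment). The difference was -7.40 for Mir124a-3 (adjusted p = 0.000231), -5.15 for Mir27a (0.000724), 6.81 for Mir320 (0.0231), 8.19 for Mir7673 (0.000167), 5.77 for Snora68 (0.00575) and 8.997 for Snord49a (0.00575). Each was at 0 in both libraries of at least 1 virus. Mir124a-3 was above 0 in S40A libraries only, at 143.7 and 196.3 FPKM, and Mir27a in S133A libraries only. Mir320, Mir7673 and Snord49a were above 0 in S40A-S133A libraries only, at 68.0 and 180.6, at 250.3 and 335.9, and at 312.9 and 830.9 FPKM. Snora68 was at 0 in S133A libraries and at 30.4 or more in the other 8. The entries other than Snora68 reached the minimum mean only through the virus in which they were above 0. Their p-values are therefore not support for a dependence on S40.

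For 7 gene lists the median of S133A minus WT had the opposite sign to the median of S40A-S133A minus S40A in both runs, and the difference between these list medians was not tested. The S133A minus WT medians were 0.49 for immediate early transcription factors, 0.27 for known CREB targets, 0.0866 for neuropeptides and granins, 0.0467 for neurotrophins and receptors, -0.19 for interferon and antiviral genes, 0.0037 for ribosomal proteins and 0.0097 for inhibitory neuron markers. Some of these signs turned with the setting. Without scaling the ribosomal median was -0.05 and the inhibitory marker median -0.04. With a library left out, the neuropeptide median was -0.04 without WT replicate 4, and without S133A replicate 1 the ribosomal median was -0.03 and the inhibitory marker median -0.11. Without WT replicate 4 these 2 were -0.0056 and -0.10.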

How the results depend on the processing

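Mir27a and Snora68 were the called entries, and both were called again in every setting tried except 3. With a pseudocount of 0.1 or a minimum mean of 5 FPKM 1 call was left, and among named genes longer than 200 bp there were 0 calls at adjusted p under 0.05 and 898 at unadjusted p under 0.05. With only the 4 libraries the calls were 5, leaving out each S133A or WT library gave 14 to 20, and leaving out both libraries that stood apart (chosen after the data were seen) gave 23. Calls of S40A-S133A against S40A were 1 in both fits of 16 libraries, 0 among named genes, 4 to 25 with a library left out and 26 without both. Calls of the difference between the 2 effects were 3 in both fits of 16 libraries and with a pseudocount of 0.1, 0 among named genes, 15 to 25 with a library left out and 38 without both. Genes at unadjusted p under 0.05 in S133A against WT numbered 909 with runs as a replicate block. Without the block they numbered 191, with 16 libraries and a library set term 149, with 16 libraries and the run as a block 389, and with a library left out 463 to 814. The block changed no call of a gene. The Creb1 difference was -0.55 to -0.04 with a library left out and 0.0366 without both libraries. Crem turned to -0.17 in both fits of 16 libraries and ran from -0.0575 to 0.40 with a library left out. Gadd45b ran from -0.87 to 0.0759 with a library left out. Without both libraries Gadd45b was 0.21, Arc 0.053 and Nts 0.0849. The cause was not tested. Mir212 passed when WT replicate 3 was left out, with a difference of 3.72. Depth limits the small RNA entries, which rest on 1 to 14 fragments in the 4 libraries.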

Other observations

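The 18 named genes with the smallest unadjusted p were also read in the other viruses. S40A minus GFP had the same sign as S133A minus WT in both runs for 16 of the 18, and S40A-S133A minus GFP for 14. The S40A, S40A-S133A and GFP libraries also gave the spread behind these p-values. A small p therefore favours close runs in them too, and the counts are not separate support. The count of 16 includes Pcdh8, at 0.0063 and 0.00031. Of 6520 named genes whose S133A minus WT had the same sign in both runs, 3407 (52.2%) did so for S40A minus GFP and 3771 (57.8%) for S40A-S133A minus GFP. Those genes were not chosen by p, so their shares are not a matched background. For Pfkp, S40A-S133A minus GFP was -1.21 in run D1 and -0.69 in run D2. For Bscl2 it was -1.07 and -0.77. In run D1 Fn1 (fibronectin) stood at 12.7 FPKM in S133A replicate 1 and 12.5 in S40A-S133A replicate 1, against 2.72 in WT, 3.03 in S40A and 2.22 in GFP. These genes were chosen after their values were seen, and no cause was tested.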
